A study of Homo sapiens with 24 samples.

Results

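The proximal tubule transport and metabolism genes examined here were 36 genes chosen by name, each matched by its Ensembl identifier to the 60675 genes of the count tables. Their RNA was counted in 24 libraries of 2 human kidney cell lines, with 4 groups per line and 3 replicates per group. ACHN is a renal cancer cell line, labelled as ccRCC (clear cell renal cell carcinoma), and HK2 is a line from human kidney. In each line, shNC cells carried a non-targeting hairpin, shKDM5C cells a hairpin against KDM5C (a histone demethylase), shYY1 cells a hairpin against YY1 (a transcription factor), and Dsh cells hairpins against both. The groups ask how the 2 regulators act on these genes alone and together. All cells were grown in serum medium on plastic and carried pLKO.1 lentiviral vectors selected with puromycin. Dsh cells were YY1-depleted cells infected again with a vector that carried a KDM5C hairpin and a green fluorescent marker. Which of the hairpins against each gene gave the sequenced cells was not stated, nor whether replicates were separate cultures, so p-values measure the spread between these libraries, which may be technical.

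The proximal tubule is the part of the nephron that takes back most of what the glomerulus filters. Its cells hold a brush border with sodium-coupled carriers for glucose, amino acids and phosphate, peptidases that cut filtered peptides, and the receptors megalin and cubilin, which bring filtered proteins into the cell. Basolateral carriers take up organic anions and cations for secretion, and the cells make glucose, creatine precursors and arginine. Tubule cells in culture are known to lose much of this program. Clear cell renal cancer, thought to arise from proximal tubule cells, is known for loss of gluconeogenic enzymes such as FBP1.

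Between 15926561 and 24272298 read pairs per library were counted on genes, of which the 36 genes together took 0.0633% to 0.131%. Values are given as CPM (counts scaled to the library total, with TMM factors within a cell line) for comparisons of a gene between groups, and as TPM (also divided by gene length) for comparisons between genes. KDM5C fell in the shKDM5C and Dsh groups of both lines and YY1 fell in the shYY1 and Dsh groups (log2 fold changes -1.74 to -0.51, edgeR). The changes were unequal: YY1 fell by -0.88 with shYY1 and -0.51 in Dsh cells of ACHN, and by -1.70 and -1.49 in HK2. KDM5C fell by -0.73 with shKDM5C and -0.80 in Dsh cells of ACHN, and by -1.74 and -1.49 in HK2. With shYY1 alone KDM5C rose (0.34 in ACHN, 0.35 in HK2), a call lost in HK2 with all 4 groups in the fit (adjusted p = 0.309). A single library stood apart from its group. In HK2 shKDM5C replicate 1, mitochondrial genes took 11.8% of the counts, against 4.75% to 5.52% in the other HK2 libraries, and KDM5C was at 37.4 CPM, against 68.4 and 67.4 CPM in the other replicates of the group. The call for KDM5C itself in HK2 shKDM5C cells was lost without any of the other 5 libraries of that comparison (adjusted p = 0.0632 to 0.151), and the counts of genes called in HK2 shKDM5C cells are also given without replicate 1. The first of 3 values listed for HK2 shKDM5C cells below is always this library.

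Because KDM5C and YY1 act at promoters, the promoter sequences of 31 of the 36 genes were read from RefSeq (GRCh38.p14), from 250 bases before to 50 after the start site. The 250 bases before the start site are printed for SLC34A2 and SLC17A3, the genes that rose most after knockdown in HK2 and ACHN cells. The same stretch of SLC34A1, the phosphate carrier typical of the proximal tubule, which was barely detected, stands beside them. SLC34A2 is read on the plus strand at chr4:25655601-25655850, SLC17A3 on the minus strand at chr6:25874244-25874493 and SLC34A1 on the plus strand at chr5:177384184-177384433. A single start site per gene was used, and each of these stretches lies inside the Ensembl span of its gene. Motifs at other start sites were not searched. Capitals mark the HNF1 core GTTAAT, read on either strand, and the TATA box TATAAA. Neither of these exact runs of letters is found in the sequences of SLC34A2 and SLC17A3. Variants of them were not searched. The SLC34A2 sequence holds the similar run tatata and that of SLC17A3 the similar run attaat. A lack of both elements in these promoters is therefore not shown.
SLC34A2: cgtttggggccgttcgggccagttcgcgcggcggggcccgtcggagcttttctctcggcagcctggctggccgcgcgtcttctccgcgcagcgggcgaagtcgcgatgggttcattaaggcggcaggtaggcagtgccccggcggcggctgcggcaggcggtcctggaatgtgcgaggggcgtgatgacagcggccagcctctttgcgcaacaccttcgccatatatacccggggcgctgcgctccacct
SLC17A3: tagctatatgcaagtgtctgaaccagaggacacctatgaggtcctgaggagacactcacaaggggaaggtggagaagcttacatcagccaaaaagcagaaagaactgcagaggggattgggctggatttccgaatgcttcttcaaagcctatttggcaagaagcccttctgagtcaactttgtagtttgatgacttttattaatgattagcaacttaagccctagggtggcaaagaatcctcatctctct
SLC34A1: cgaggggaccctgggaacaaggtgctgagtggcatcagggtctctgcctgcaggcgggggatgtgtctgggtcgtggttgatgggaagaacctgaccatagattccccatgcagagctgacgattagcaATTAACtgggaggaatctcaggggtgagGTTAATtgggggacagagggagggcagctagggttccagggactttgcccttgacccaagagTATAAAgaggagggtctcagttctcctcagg

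Both strands of the promoters were searched for 4 motifs, none of which contains another. The YY1 core GCCATNTT was in none of the 31 promoters and in 6.82% of all 27305 promoters in the table. The HNF1 core, the letters bound by a tubular transcription factor, was in 6 (19.4%: DAB2, MIOX, SLC22A6, SLC34A1, SLC5A1 and SLC6A19), against 6.89% of all promoters. The TATA box was in 5 (16.1%: AGT, AQP1, SLC22A6, SLC34A1 and SLC6A19), against 12% of all. In SLC34A1 it began at position -31, and in AGT, AQP1 and SLC6A19 at -30. The HNF4 motif CAAAGTCCA was in none of the 31 and in 0.359% of all. These matches are descriptions of letters and say nothing of binding.

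Of the 36 genes, 11 were too low to measure in both lines, megalin and the organic anion carriers of the basolateral side among them. A gene was taken as measurable where it passed edgeR's filter on low counts over the 12 libraries of a line. By that rule 25 of the 36 genes were measurable in 1 line or both, 20 of them in both. CUBN, SLC13A3 and FBP1 were measurable in ACHN cells only, and SLC34A1 and SLC2A9 in HK2 cells only. The 11 genes too low in both lines were LRP2 (megalin), AQP1 (the water channel), SLC5A1 (a glucose carrier), SLC5A12 (a lactate carrier), the neutral and basic amino acid carrier subunits SLC6A19 and SLC7A9, the organic cation carrier SLC22A2, the organic anion carriers SLC22A6 and SLC22A8, the peptidase ANPEP, and PCK1, the cytosolic enzyme of gluconeogenesis. SLC5A12 and SLC22A6 had 0 counts in all 24 libraries, and LRP2 had at most 1 count in any library. A count of 0 allows 3 counts, 0.124 to 0.188 CPM per library depending on depth, and covers counting error only.

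Of 8 proximal tubule markers, at most 1 reached 1 CPM in any group, and their summed level was between 1.36 and 4.37 CPM in all 24 libraries. Among these 8, LRP2, CUBN, AQP1, SLC5A2, SLC34A1 and SLC22A6 also belong to the genes examined here. Their sum is therefore no separate evidence on the cells. The 7 general renal epithelium markers all reached 1 CPM in every group. Their sum was 2337 to 2371 CPM in ACHN shNC libraries, 2642 to 2811 CPM in the ACHN single knockdowns and 1643 to 1801 CPM in ACHN Dsh libraries. In HK2 cells it was 2917 to 3026 CPM in shNC, 2501 to 3087 CPM in shKDM5C, 2024 to 2152 CPM in shYY1 and 1504 to 1629 CPM in Dsh libraries. KRT8 fell from 1846 ± 55.4 CPM in shNC to 814 ± 46.9 CPM in Dsh cells of HK2, and from 1388 ± 19.2 to 693 ± 44.3 CPM in ACHN. PAX8 went the other way in Dsh cells, from 535 ± 7.17 to 709 ± 32.8 CPM in ACHN and from 257 ± 8.27 to 308 ± 11.1 CPM in HK2. The other markers of this set were lower by mean in Dsh than in shNC cells of both lines. Of the 2 renal carcinoma markers, MET was at 400 ± 3.81 CPM in ACHN shNC and 585 ± 34.1 CPM in ACHN Dsh cells. In HK2 cells MET was at 238 ± 7.01 CPM in shNC and 335 ± 3.84 CPM in Dsh. CA9, the other marker, was at 0.781 ± 0.0553 CPM in HK2 shNC and 8.74 ± 1.77 CPM in HK2 Dsh cells and at most at 0.123 CPM by mean in any ACHN group. Of 3 loop of Henle markers only CLDN16 was above 1 CPM, at a mean of 167 CPM in ACHN shNC and 31.8 CPM in HK2 shNC cells, and it reached 351 CPM in ACHN Dsh cells. Of 4 fibroblast markers, COL1A1 was the highest in every group. Their sum was 575 to 625 CPM in ACHN shNC libraries and 72.7 to 194 CPM in the libraries of the 3 ACHN knockdowns, with COL1A2 at 0 in every ACHN group but Dsh, while in HK2 cells it was 16.1 to 37.9 CPM. DCN, another of the 4, was at 0.147 ± 0.172 CPM in HK2 shNC and 7.31 ± 0.620 CPM in HK2 Dsh cells. Markers of distal tubule, collecting duct, podocytes, endothelium and leukocytes summed to at most 3.25 CPM each. The part of these shifts in the results below was not tested, and fewer cells with a gene cannot be told apart from less RNA per cell.

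**Figure D1:**
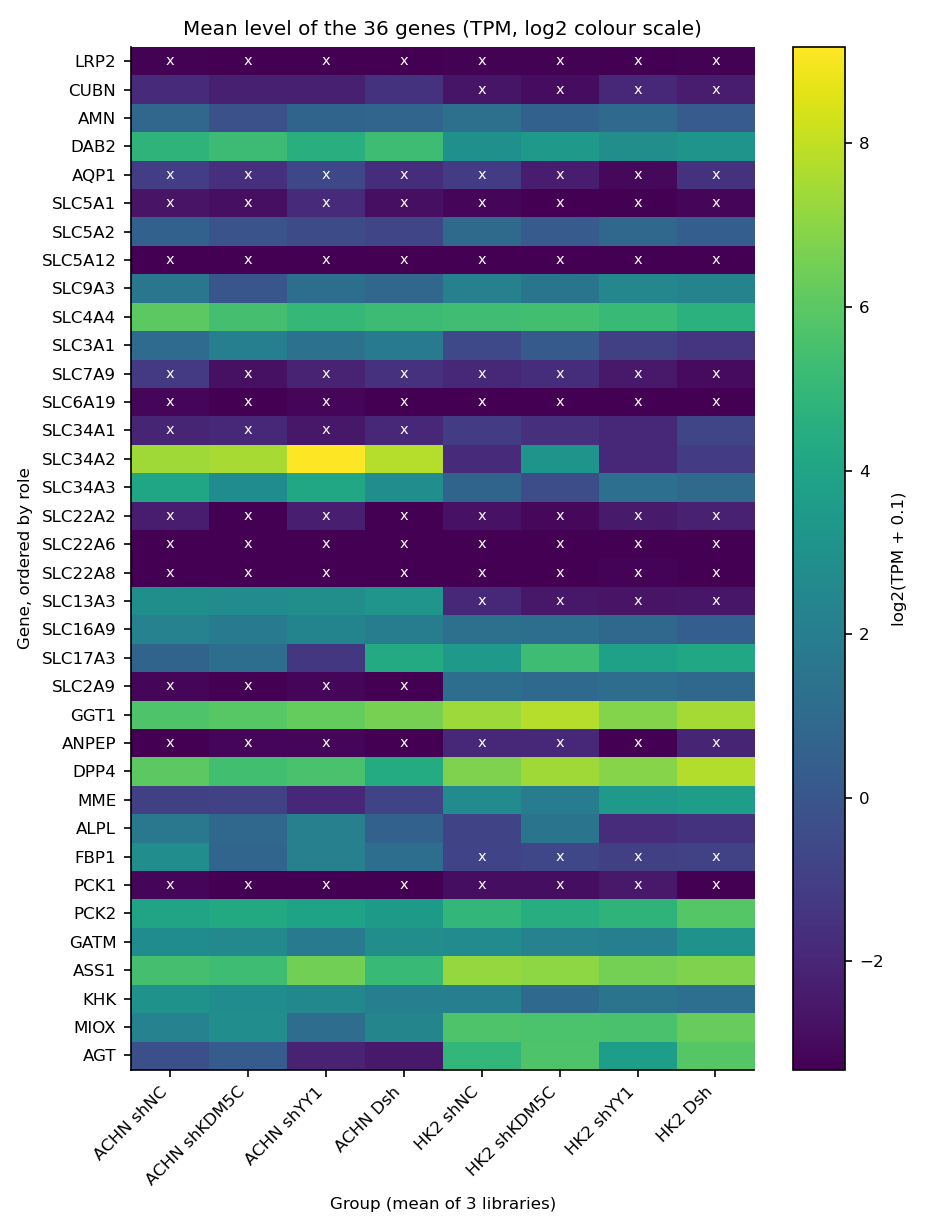
Mean TPM of the 36 genes (rows, ordered by role) in the 8 groups (columns, 3 libraries each) on a log2 colour scale, with a white x where a gene was too low to measure in that line. Bright rows are few: SLC34A2 in ACHN cells, GGT1, DPP4, SLC4A4 and ASS1 in both lines, and MIOX and AGT in HK2 cells.

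A handful of genes held most of the counts. In shNC cells the 5 genes with the highest CPM took 82.0% to 82.3% of the counts of the 36 in ACHN libraries (SLC34A2, SLC4A4, DPP4, GGT1 and DAB2) and 82.3% to 83.5% in HK2 libraries (GGT1, DPP4, ASS1, SLC4A4 and PCK2). The ACHN order per length was SLC34A2 (170.5 ± 13.5 TPM, SD, n = 3), DPP4 (65.4 ± 1.41), SLC4A4 (64.4 ± 0.934), GGT1 (53.3 ± 1.05) and ASS1 (45.6 ± 3.90). In that order DPP4 and SLC4A4 did not differ beyond their spread. In HK2 cells GGT1 (164 ± 8.84 TPM) came first, followed by ASS1 (147 ± 9.04), DPP4 (109 ± 2.15), MIOX (53.7 ± 7.62) and SLC4A4 (40.0 ± 1.54). The summed level of all 36 genes was 757 ± 25.6 CPM in ACHN shNC and 739 ± 28.4 CPM in HK2 shNC cells (SD, n = 3, scaled within each line). In ACHN shYY1 cells the sum was 1290.1 ± 34.8 CPM, of which SLC34A2 alone took 62.6% to 64.3%, against 30.3% to 32.6% in shNC cells.

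In the control state, ACHN cells held more RNA of the carriers SLC34A2, SLC34A3 and SLC13A3, and HK2 cells more RNA of the peptidases DPP4 and MME and of MIOX and AGT. Of 24 genes tested between ACHN shNC and HK2 shNC cells, 11 were higher in ACHN and 9 lower at an adjusted p under 0.05 (edgeR quasi-likelihood test, Benjamini-Hochberg over all genes), and 15 of these differed by at least 1.5 on the log2 scale. Over all genes tested, 38.6% were higher, 38.0% were lower and 21.3% passed both limits. The median difference of the 24 genes was -0.10, against 0.016 over all genes. Of the 20 genes called, 6 (CUBN, SLC34A2, SLC13A3, SLC2A9, ALPL and FBP1) had no library of the lower line at the CPM that the filter asks for. They passed it only through the line where they were high, so they are given as ratios of counts scaled by depth, with exact 95% intervals that cover counting error only. SLC34A2 had 13430 counts over the ACHN and 13 over the HK2 shNC libraries, a ratio of 983 (574 to 1846). SLC13A3, a dicarboxylate carrier, was at 13.1 ± 1.38 CPM in ACHN and 0.270 ± 0.0987 CPM in HK2 cells, a ratio of 47.6 (28.6 to 85.4). FBP1, the gluconeogenic enzyme, was at 3.35 ± 0.270 CPM in ACHN shNC and 0.218 ± 0.00859 CPM in HK2 shNC cells, a ratio of 15.1 (8.47 to 29.8). In the other direction, AGT (angiotensinogen) had a log2 difference of -5.30, MME (neprilysin, a peptidase) of -3.87 and MIOX (myo-inositol oxygenase) of -3.44. SLC2A9, a urate carrier, had 225 counts over the 3 HK2 libraries and 2 over the 3 ACHN libraries, a ratio of 118 (32.4 to 983). Cell line and laboratory handling of the line cannot be told apart.

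In ACHN cells each knockdown moved more of these genes down than up, most of them by less than 1.5 on the log2 scale. After KDM5C knockdown 6 of 23 genes tested rose and 9 fell, after YY1 knockdown 4 of 22 rose and 10 fell, and in Dsh cells 5 of 22 rose and 11 fell. The background was wide. Over all genes, 28.9% rose and 27.7% fell with shKDM5C, 24.2% rose and 24.5% fell with shYY1, and 30.7% rose and 32.0% fell in Dsh cells. The medians of the genes tested were -0.17, -0.31 and -0.25, against medians between -0.0074 and -0.0057 over all genes. Only 2 genes passed the fold limit with shKDM5C (SLC9A3 and FBP1, both lower), 2 with shYY1 (SLC34A2 higher, SLC17A3 lower) and 4 in Dsh cells (SLC17A3 higher, SLC5A2, DPP4 and FBP1 lower). With shYY1, SLC17A3 passed the filter on low counts only through shNC, so its call there is no support for the counts. The shares of all genes past it were 3.34%, 3.13% and 8.42%. The 3 comparisons share their control libraries. In the Dsh libraries the renal epithelium markers also summed to less than in shNC (1643 to 1801 against 2337 to 2371 CPM), although PAX8 was higher (709 against 535 CPM by mean). The part of these shifts in the counts was not tested.

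In HK2 cells fewer genes passed the test, and in Dsh cells more rose than fell in the main fit. With shKDM5C 3 of 21 genes tested rose and none fell by edgeR's test, while 3 were lower at an unadjusted p under 0.05 and DESeq2 called 1 lower (KHK). Over all genes 0.668% rose, 0.656% fell and 0.501% passed the fold limit as well, as the 3 genes did (SLC34A2, SLC17A3 and ALPL). SLC34A2 and ALPL passed the filter on low counts only through shKDM5C, so their calls are no support for the count. Without replicate 1 of shKDM5C, 7 rose (DAB2, SLC34A2, SLC17A3, GGT1, DPP4, ALPL and AGT) and 3 fell (MME, PCK2 and KHK), beside 11.5% and 10.9% of all genes. With that replicate kept, leaving out shNC replicate 1, 2 or 3 left 0, 1 and 0 genes called higher. With shYY1 3 of 19 rose and 4 fell, beside 14.3% and 14.7% of all genes, and none passed the fold limit by edgeR or DESeq2, at an adjusted or an unadjusted p (1.29% of all genes did by edgeR). In Dsh cells 8 of 20 rose and 5 fell, beside 25.5% and 24.3% of all genes. Again the count past the fold limit was 0 by both tools and both kinds of p (4.3% of all genes). Leaving out a library gave 6 to 8 higher and 4 to 6 lower in Dsh cells. With all 4 groups in the fit, the rises of GGT1, GATM and MIOX and the fall of SLC16A9 were no longer called. The medians of the genes tested were -0.026, -0.11 and 0.16, against medians between -0.0027 and 0.0051 over all genes. The renal epithelium markers summed to 1504 to 1629 CPM in Dsh against 2917 to 3026 CPM in shNC libraries, although PAX8 was higher in Dsh (308 against 257 CPM by mean). DCN, CA9 and MET were also higher in Dsh. The part of these shifts in the Dsh counts was not tested.

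**Figure D2:**
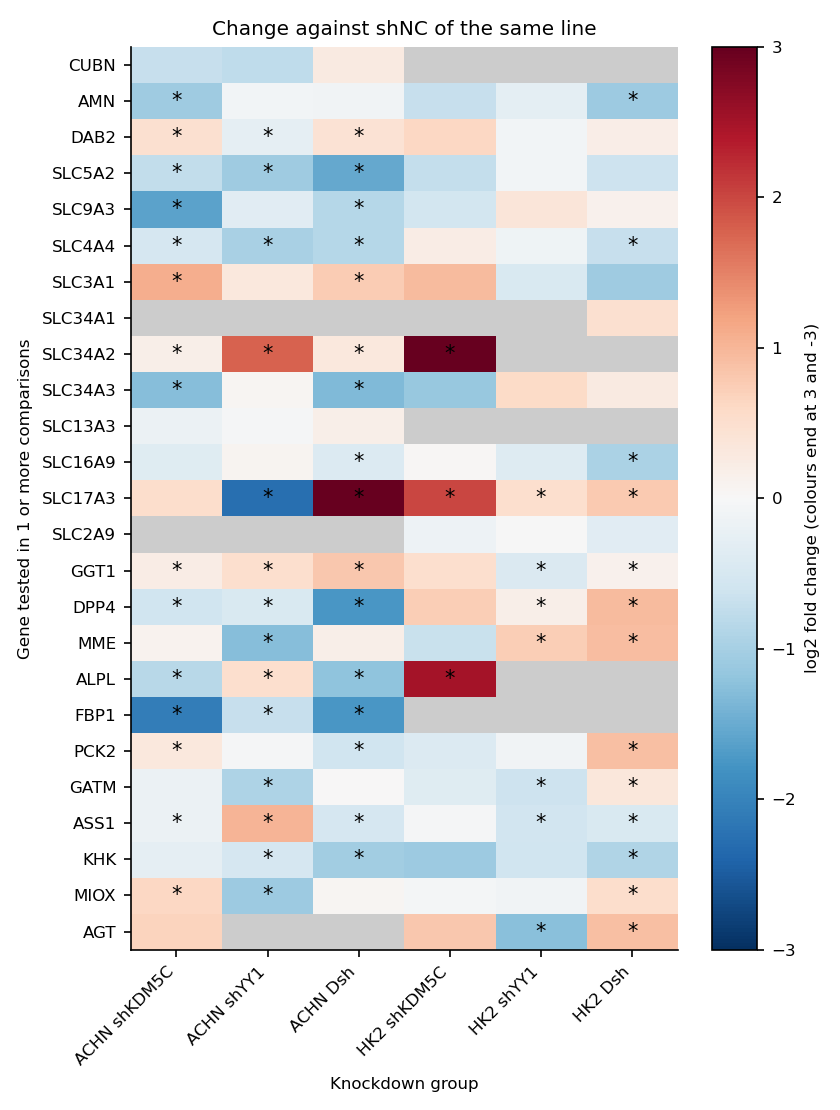
Log2 fold change against shNC of the same line (colour) for the 25 genes tested in 1 or more comparisons (rows) in 6 knockdown groups (columns). Stars mark an adjusted p under 0.05 and grey marks a gene too low to test, and SLC17A3 in ACHN Dsh and SLC34A2 in HK2 shKDM5C cells show the deepest red.

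Among the phosphate carriers, SLC34A2 rose in all 3 ACHN knockdowns, by most with shYY1, and was detected well above the filter in HK2 cells with shKDM5C. SLC34A2 (chromosome 4, 25655301 to 25678748, GRCh38) encodes the sodium phosphate carrier typical of lung and gut, and its promoter is printed above. In ACHN cells its level was 229, 255 and 222 CPM in the 3 shNC libraries and 258, 273 and 276 CPM with shKDM5C. With shYY1 it was 798, 851 and 809.6 CPM, and in Dsh cells 277, 302 and 295 CPM. The shYY1 libraries thus stood above all others, and no shNC library reached the lowest library of any knockdown. The log2 fold change was log2 fold change 1.78, with standard error 0.0355, adjusted p = 1.70e-29 with shYY1, 0.19 with shKDM5C (adjusted p = 3.91e-04) and 0.31 in Dsh cells (adjusted p = 6.94e-05).

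In HK2 cells the same gene was close to the limit of detection except with shKDM5C. Its level was 0.390, 0 and 0.313 CPM in shNC, 12.8, 12.6 and 11.9 CPM in shKDM5C, 0.298, 0 and 0.407 CPM in shYY1 and 0.476, 0.295 and 0.689 CPM in Dsh cells. All 3 shKDM5C libraries, the divergent one included, lay far above the other 9. The gene had 636 counts over the shKDM5C and 13 over the shNC libraries, a depth-scaled ratio of 49.8 (exact 95% interval 28.9 to 94.1, counting error only). It was called there, but passed the filter only through shKDM5C, and it was too low to test with shYY1 and in Dsh cells (12 and 25 counts).

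SLC34A3, the kidney's other apical phosphate carrier, was lower in both ACHN groups that carried the KDM5C hairpin. It was at 12, 11.7 and 10.2 CPM in shNC, 5.01, 4.38 and 4.66 CPM with shKDM5C, 11.5, 12.4 and 12 CPM with shYY1 and 3.26, 4.80 and 5.32 CPM in Dsh cells. Both groups with the KDM5C hairpin lay below shNC without overlap (log2 fold change -1.28, with standard error 0.122, adjusted p = 1.71e-09 for shKDM5C, log2 fold change -1.33, with standard error 0.153, adjusted p = 4.32e-07 for Dsh), whereas shYY1 did not pass the test (log2 fold change 0.062, adjusted p = 0.626). In HK2 cells it stayed at means of 0.442 to 1.5 CPM and passed no test. SLC34A1, the main proximal tubule phosphate carrier, was at means of 0.106 to 0.629 CPM over the 8 groups.

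SLC17A3 had the largest rise of the genes tested in ACHN cells, and it came with the double knockdown. SLC17A3 (chromosome 6, 25833066 to 25882286) encodes an organic anion carrier that exports urate. In ACHN cells it was at 2.11, 1.59 and 1.17 CPM in shNC, 2.79, 2.13 and 2.09 CPM in shKDM5C, 0.418, 0.371 and 0.219 CPM in shYY1 and 20.1, 21.7 and 16.8 CPM in Dsh cells. The shYY1 libraries lay below all shNC libraries and the Dsh libraries above them, while shKDM5C overlapped shNC. The Dsh change was log2 fold change 3.57, with standard error 0.168, adjusted p = 1.51e-12. With shYY1, where the gene was called lower and passed the filter only through shNC, it had 19 counts against 93 in shNC, a depth-scaled ratio of shNC to shYY1 of 4.94 (exact 95% interval 2.99 to 8.57, counting error only).

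In HK2 cells SLC17A3 rose with every knockdown. Its level was 8.29, 11.4 and 11.6 CPM in shNC, 37.6, 44.1 and 43.5 CPM in shKDM5C, 13.7, 14 and 16.5 CPM in shYY1 and 19.5, 17.4 and 16.7 CPM in Dsh cells. No knockdown library overlapped shNC. The largest change was with shKDM5C (log2 fold change 2.0, with standard error 0.176, adjusted p = 0.00762; 2.07 without replicate 1), followed by Dsh (0.78, adjusted p = 7.10e-06) and shYY1 (0.50, adjusted p = 0.00823). The shKDM5C call was lost without shNC replicate 1, 2 or 3 (adjusted p = 0.0946 to 0.102). The shYY1 call was lost without shNC replicate 1 or shYY1 replicate 3 (adjusted p = 0.0657 to 0.0682), and with all 4 HK2 groups in the fit (adjusted p = 0.0765). A small part of its exons, 7.04%, also lies in a histone pseudogene on the same strand.

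SLC17A3 lies in a run of related carriers on chromosome 6, so its neighbours were read as well, SLC17A2 and SLC17A4 being chosen after the values of SLC17A3 were seen. SLC17A1, a urate and phosphate carrier from the second gene list described below, was at 0.412, 0.477 and 0.798 CPM in ACHN shNC and 3.98, 3.93 and 2.94 CPM in ACHN Dsh cells (log2 fold change 2.66, with standard error 0.291, adjusted p = 2.10e-07). With shYY1 it had 1 count in 3 ACHN libraries. In HK2 Dsh cells, where SLC17A3 rose, SLC17A1 fell from 5.57, 4.59 and 6.15 CPM in shNC to 2.20, 2.53 and 1.44 CPM (log2 fold change -1.39, adjusted p = 1.41e-05). SLC17A2 and SLC17A4 were too low to measure in ACHN cells, with at most 5 counts over the 3 libraries of any group.

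The other organic ion and urate carriers gave few calls. SLC13A3 passed no test against shNC in ACHN cells, with group means between 11.7 and 15 CPM. SLC16A9, a monocarboxylate carrier family member, fell in Dsh cells of both lines (-0.40, adjusted p = 0.0401 in ACHN and -0.94, adjusted p = 0.0138 in HK2). Its call was lost without shNC replicate 1 or Dsh replicate 2 or 3 (adjusted p = 0.0774 to 0.296) in ACHN, and lost without shNC replicate 3 or Dsh replicate 3 (adjusted p = 0.0869 to 0.103) in HK2 cells. SLC2A9 was at means of 3.22 to 4.07 CPM in the HK2 groups and passed no test there.

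**Figure D3:**
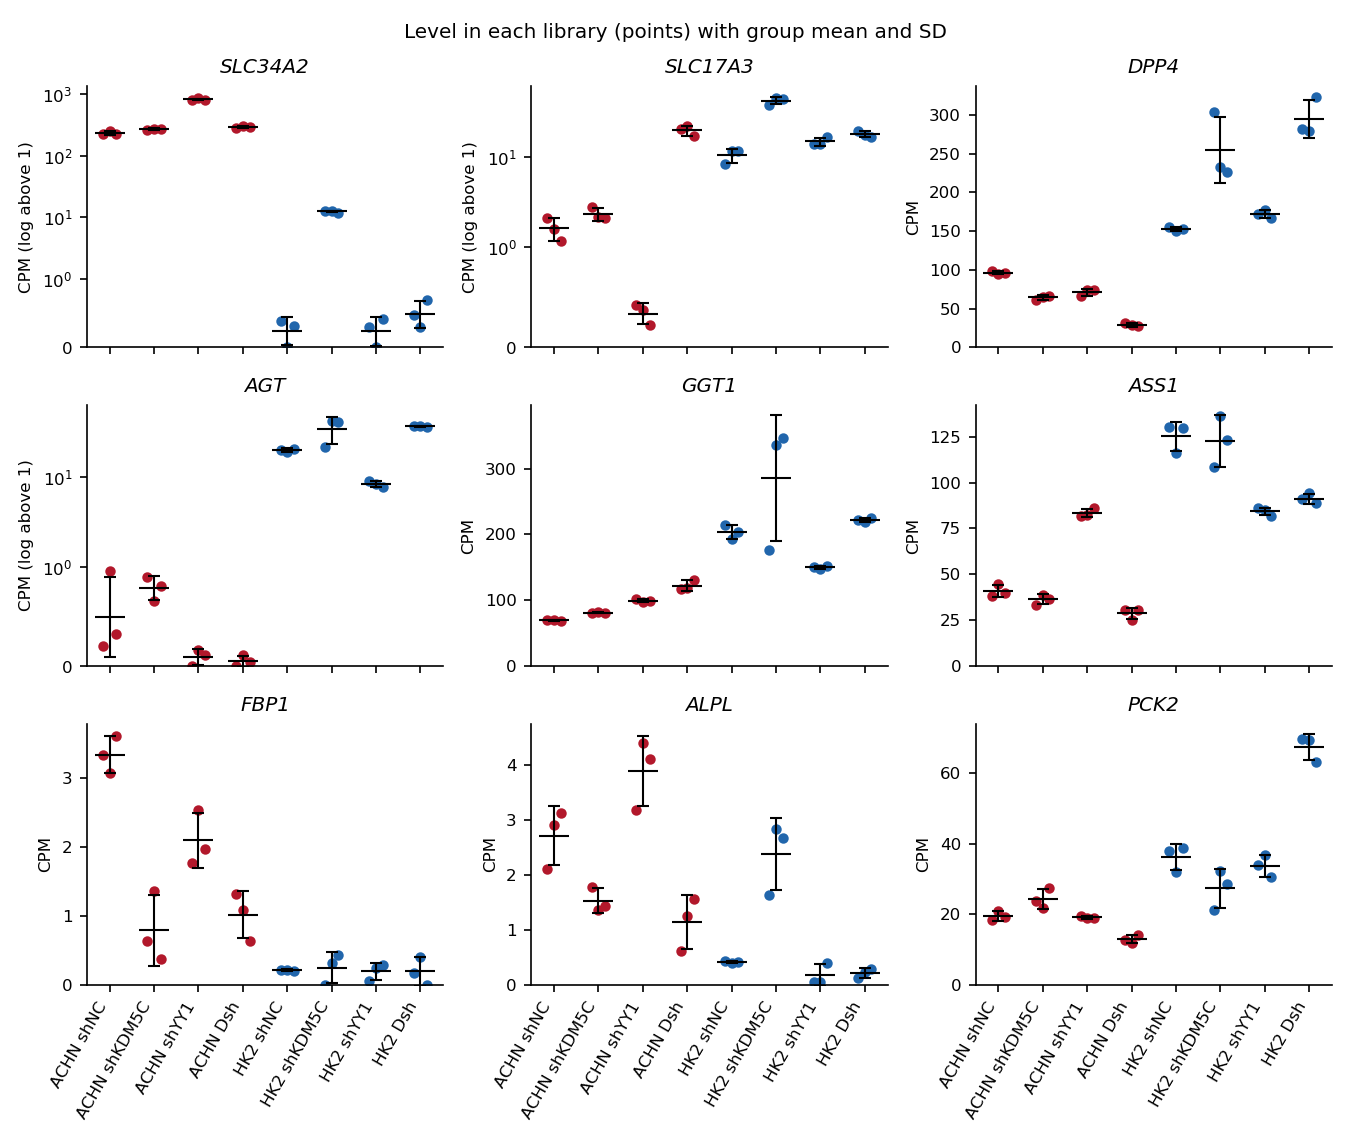
CPM of 9 genes in every library (points, red for ACHN and blue for HK2) with the mean and SD of each group of 3 (black bars), on a logarithmic axis above 1 CPM for SLC34A2, SLC17A3 and AGT and a linear axis for the others. SLC17A3 stands at 16.8 to 21.7 CPM in ACHN Dsh libraries and DPP4 is lower in ACHN and higher in HK2 knockdowns than in shNC.

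Of the brush border enzymes, DPP4 fell in ACHN knockdowns and rose with shYY1 and in Dsh cells of HK2. DPP4 (chromosome 2, 161992241 to 162074542) is a dipeptidyl peptidase of the brush border that removes N-terminal dipeptides from incretins and other peptides. In ACHN cells its level was 98.6, 94.6 and 95.6 CPM in shNC, 61.3, 65.6 and 66.5 CPM in shKDM5C, 66.2, 74.1 and 73.8 CPM in shYY1 and 30.9, 28.6 and 26.9 CPM in Dsh cells. Every knockdown library lay below every shNC library, and the Dsh libraries lay below those of both single knockdowns. The changes were -0.59, -0.45 and -1.75 (standard error 0.0601, adjusted p = 1.79e-14 for Dsh).

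DPP4 rose in HK2 cells, where it was at 156, 150.3 and 153 CPM in shNC, 304, 233 and 227 CPM in shKDM5C, 172, 177 and 167 CPM in shYY1 and 282, 279 and 323 CPM in Dsh cells. All knockdown libraries were above all shNC libraries. The Dsh change was log2 fold change 0.95, with standard error 0.0499, adjusted p = 2.41e-16 and the shYY1 change 0.17 (adjusted p = 0.0116). With shKDM5C the change of 0.74 missed the threshold (adjusted p = 0.0678) and without replicate 1 a change of 0.59 passed it (adjusted p = 2.88e-10). The shYY1 call was lost without shNC replicate 2 or 3 or shYY1 replicate 2 (adjusted p = 0.0503 to 0.0549). It was also lost with all 4 HK2 groups in the fit (adjusted p = 0.480).

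GGT1, the enzyme that starts the breakdown of extracellular glutathione, rose in all 3 ACHN knockdowns. It was at 70.6, 69.6 and 68.2 CPM in shNC, 80.9, 82.3 and 81.0 CPM in shKDM5C, 101, 97.9 and 99.3 CPM in shYY1 and 117, 118 and 131 CPM in Dsh cells. The 4 groups did not overlap, and the largest change was in Dsh cells (log2 fold change 0.81, with standard error 0.0538, adjusted p = 2.15e-10). In HK2 cells GGT1 fell with shYY1 (214, 193 and 204 CPM in shNC and 151, 147 and 151 CPM in shYY1, log2 fold change -0.44, adjusted p = 8.67e-07). That call was lost with all 4 HK2 groups in the fit (adjusted p = 0.227). The shKDM5C libraries were at 176, 336 and 346 CPM, so replicate 1 lay below shNC and the others far above it, and the change was 0.74 without replicate 1 (adjusted p = 6.58e-12) and 0.49 with it (adjusted p = 0.379). GGT1 has near-identical relatives on its chromosome, and 6.9% of its exons lie within SNRPD3, so its counts are less certain than those of DPP4.

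MME rose with YY1 loss in HK2 cells. It was at 17.5, 17.8 and 17.1 CPM in shNC, 28.4, 32.9 and 26.0 CPM in shYY1 and 35.5, 32.6 and 30.4 CPM in Dsh cells, which did not overlap shNC (log2 fold change 0.74, with standard error 0.101, adjusted p = 7.44e-06 for shYY1 and log2 fold change 0.92, with standard error 0.0923, adjusted p = 8.21e-10 for Dsh). The HK2 shKDM5C libraries were at 14.8, 10.1 and 8.17 CPM, which did not pass the test (-0.66, adjusted p = 0.256) and passed it without replicate 1 (-0.94, adjusted p = 7.80e-06). In ACHN cells MME was at 0.483 to 1.33 CPM by group mean and fell with shYY1 only (-1.27, adjusted p = 0.00421).

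ALPL, the tissue-nonspecific alkaline phosphatase, was low in both lines. In HK2 cells it was at 0.445, 0.392 and 0.417 CPM in shNC and 1.64, 2.85 and 2.69 CPM with shKDM5C. That is 23 and 126 counts, a depth-scaled ratio of 5.58 (exact 95% interval 3.56 to 9.12, counting error only), and the gene passed the filter only through shKDM5C. In ACHN cells it was at 2.11, 2.92 and 3.14 CPM in shNC, 1.79, 1.37 and 1.45 CPM in shKDM5C, 3.19, 4.40 and 4.11 CPM in shYY1 and 0.612, 1.25 and 1.57 CPM in Dsh cells. It fell with shKDM5C (-0.83, adjusted p = 0.00395) and in Dsh cells (-1.22, adjusted p = 0.00157) and rose with shYY1 (0.50, adjusted p = 0.0318). The last call was lost without shNC replicate 1 or shYY1 replicate 2 or 3 (adjusted p = 0.0795 to 0.174), and that in HK2 cells was lost without shNC replicate 1, 2 or 3 or shKDM5C replicate 2 or 3 (adjusted p = 0.118 to 0.192).

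Of the 6 water, sugar, lactate, sodium and bicarbonate transport genes, 3 could be tested in ACHN cells (SLC4A4, SLC9A3 and SLC5A2). All 3 fell with shKDM5C and in Dsh cells, and SLC4A4 and SLC5A2 fell with shYY1. SLC4A4, the basolateral sodium bicarbonate carrier, was at 158, 160.0 and 157 CPM in ACHN shNC, 111, 112 and 113 CPM in shKDM5C, 77.8, 80.1 and 87.6 CPM in shYY1 and 83.8, 95.1 and 83.4 CPM in Dsh cells. All knockdown libraries lay well below shNC, with changes of -0.51, -0.97 and -0.86 (adjusted p at most 8.83e-11). In HK2 cells SLC4A4 was at 97.4, 91.1 and 92.4 CPM in shNC and 56.9, 60.8 and 55.6 CPM in Dsh cells (log2 fold change -0.69, with standard error 0.0590, adjusted p = 2.65e-11). With shYY1 it was at 86.7, 85.9 and 83.4 CPM, below shNC without overlap, and did not pass the test (-0.13, adjusted p = 0.0829).

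SLC9A3, the apical sodium proton exchanger, fell in ACHN cells from 1.65, 2.70 and 2.66 CPM in shNC to 0.844, 0.766 and 0.697 CPM with shKDM5C (log2 fold change -1.60, with standard error 0.290, adjusted p = 4.01e-05), and was at 0.918, 1.42 and 1.53 CPM in Dsh cells (log2 fold change -0.84, adjusted p = 0.0145). The Dsh call was lost without shNC replicate 2 or 3 or Dsh replicate 1 (adjusted p = 0.0540 to 0.0741). With shYY1 SLC9A3 was at 2.20, 2.28 and 1.10 CPM, which overlapped shNC and did not pass the test (-0.34, adjusted p = 0.288). SLC5A2, the apical glucose carrier that is the target of the gliflozins, was at 2.16, 1.27 and 1.97 CPM in shNC and 0.459, 1.04 and 0.403 CPM in Dsh cells (log2 fold change -1.55, with standard error 0.375, adjusted p = 0.00146). Its call with shKDM5C (-0.73, adjusted p = 0.0319) was lost without shNC replicate 1 or 3 or shKDM5C replicate 1 (adjusted p = 0.101 to 0.160). Neither gene passed a test in HK2 cells. Both are uncertain, since strand was not used in the counting and 27.2% of the exons of SLC9A3 and 40.7% of those of SLC5A2 overlap genes on the opposite strand (SLC9A3-AS1 and RUSF1 among them).

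The heavy subunit of the cystine carrier, SLC3A1, rose in ACHN cells with the KDM5C hairpin. It was at 3.81, 4.03 and 3.46 CPM in shNC, 7.54, 8.86 and 7.88 CPM in shKDM5C, 5.49, 4.67 and 4.17 CPM in shYY1 and 5.81, 7.42 and 6.17 CPM in Dsh cells. All knockdown libraries lay above shNC. The change was log2 fold change 1.09, with standard error 0.140, adjusted p = 2.63e-07 for shKDM5C. For Dsh it was log2 fold change 0.77, with standard error 0.157, adjusted p = 2.94e-04, and shYY1 did not pass the test. In HK2 cells SLC3A1 was at means of 0.507 to 2.04 CPM. The HK2 shKDM5C libraries (1.57, 2.53 and 2.03 CPM) also lay above shNC, a change that did not pass the test. Of the exons of SLC3A1, 29.4% overlap PREPL on the opposite strand. Its partner SLC7A9 was too low to measure in both lines.

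Of the endocytic genes, the adaptor DAB2, which links megalin to clathrin, was the only well-expressed gene. In ACHN cells it was at 65.1, 62.7 and 60.1 CPM in shNC, 84.3, 92.5 and 87.5 CPM in shKDM5C, 48.3, 52.8 and 56.3 CPM in shYY1 and 81.9, 86.3 and 84.7 CPM in Dsh cells. It rose with shKDM5C (0.48, adjusted p = 1.69e-09) and in Dsh cells (0.43, adjusted p = 9.81e-07) and fell with shYY1 (-0.28, adjusted p = 3.48e-05). AMN, the membrane anchor of cubilin, fell in ACHN cells with shKDM5C from 2.01, 2.17 and 2.50 to 0.844, 1.15 and 1.18 CPM (log2 fold change -1.08, with standard error 0.260, adjusted p = 9.79e-04) and in HK2 Dsh cells from 3.23, 2.69 and 3.18 to 1.67, 0.943 and 1.67 CPM (log2 fold change -1.08, with standard error 0.302, adjusted p = 0.00358). CDC42BPB, on the opposite strand, and a further gene share 16.4% of its exons. CUBN itself was at 0.444 to 0.926 CPM by group mean in ACHN cells and passed no test against shNC.

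Among metabolic enzymes, FBP1 fell in every ACHN knockdown. FBP1 (chromosome 9, 94603133 to 94640249) catalyses a late step of gluconeogenesis. Its level was 3.34, 3.08 and 3.62 CPM in ACHN shNC, 0.633, 1.37 and 0.375 CPM in shKDM5C, 1.78, 2.55 and 1.98 CPM in shYY1 and 1.33, 1.09 and 0.645 CPM in Dsh cells. No knockdown library overlapped shNC, and the changes were log2 fold change -2.08, with standard error 0.292, adjusted p = 1.14e-06 for shKDM5C, log2 fold change -0.69, with standard error 0.206, adjusted p = 0.00561 for shYY1 and log2 fold change -1.74, with standard error 0.265, adjusted p = 1.36e-05 for Dsh. The shYY1 call was lost with all 4 ACHN groups in the fit (-0.67, adjusted p = 0.0536). KHK (fructokinase) fell with shYY1 (-0.51, adjusted p = 0.00182) and in Dsh cells of ACHN (-1.05, adjusted p = 4.69e-05) and in HK2 Dsh cells (-0.89, adjusted p = 0.00457), from shNC means of 7.34 and 3.58 CPM, with 23.8% of its exons shared with CGREF1 on the opposite strand.

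ASS1, which makes argininosuccinate on the path to arginine, went up with YY1 knockdown alone in ACHN cells. It was at 38.1, 44.6 and 39.7 CPM in shNC, 33.4, 38.9 and 36.7 CPM in shKDM5C, 81.9, 82.4 and 85.9 CPM in shYY1 and 30.6, 25.0 and 30.4 CPM in Dsh cells. The shKDM5C libraries overlapped shNC. ASS1 was called lower there, a call lost with DESeq2 (adjusted p = 0.0573) and with all 4 groups in the fit (adjusted p = 0.0624). It was also lost without shNC replicate 2 or shKDM5C replicate 1 or 3 (adjusted p = 0.0546 to 0.223). The shYY1 libraries stood above the rest (log2 fold change 1.01, with standard error 0.0509, adjusted p = 5.86e-18) and the Dsh libraries below shNC (log2 fold change -0.51, with standard error 0.0827, adjusted p = 2.93e-05). In HK2 cells ASS1 fell with shYY1, from 130.0, 116 and 129.6 to 86.0, 84.8 and 81.9 CPM (log2 fold change -0.57, with standard error 0.0579, adjusted p = 1.17e-07), and in Dsh cells (-0.45, adjusted p = 3.27e-08). ASS1 has processed pseudogenes that can share its reads.

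PCK2, the mitochondrial enzyme that makes phosphoenolpyruvate, stood out in HK2 Dsh cells. It was at 38.0, 32.1 and 38.7 CPM in HK2 shNC, 21.2, 32.2 and 28.5 CPM in shKDM5C, 34.0, 36.7 and 30.5 CPM in shYY1 and 69.6, 69.4 and 63.2 CPM in Dsh cells (log2 fold change 0.90, with standard error 0.0734, adjusted p = 8.49e-12). The shKDM5C change did not pass the test with replicate 1 (-0.40, adjusted p = 0.341) and just passed it without (-0.26, adjusted p = 0.04999). In ACHN Dsh cells it fell, from 18.3, 21.0 and 19.2 to 12.8, 11.8 and 14 CPM (log2 fold change -0.59, with standard error 0.0962, adjusted p = 2.92e-05). GATM, the first enzyme of creatine synthesis, fell with shYY1 in both lines (-0.93, adjusted p = 1.12e-08 in ACHN and -0.61, adjusted p = 0.00402 in HK2). MIOX was at means of 25.1 to 38.5 CPM in HK2 cells, where it rose in Dsh cells (0.52, adjusted p = 1.29e-05), and at 1.14 to 3.72 CPM in ACHN cells, where it rose with shKDM5C (0.61, adjusted p = 0.0141) and fell with shYY1 (-1.10, adjusted p = 9.61e-04). The rise with shKDM5C was lost without shNC replicate 3 or shKDM5C replicate 3 (adjusted p = 0.0763 to 0.0900). The rise of MIOX in HK2 Dsh cells was lost with all 4 HK2 groups in the fit (adjusted p = 0.136).

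AGT, the precursor of the angiotensins (chromosome 1, 230702523 to 230714297), fell with shYY1 and rose in Dsh cells of HK2. It was at 20.3, 18.9 and 20.9 CPM in shNC, 21.5, 42.3 and 41.2 CPM in shKDM5C, 9.01, 8.50 and 7.74 CPM in shYY1 and 37.0, 37.2 and 36.8 CPM in Dsh cells. The shYY1 libraries lay below all shNC libraries (log2 fold change -1.25, with standard error 0.118, adjusted p = 3.94e-08) and the Dsh libraries above them (log2 fold change 0.89, with standard error 0.0847, adjusted p = 2.53e-10). With shKDM5C the change of 0.81 did not pass (adjusted p = 0.219), replicate 1 lying near shNC, and without it the change was 1.06 (adjusted p = 1.91e-09). In ACHN cells AGT was too low to test between Dsh and shNC. It had 28 counts over the shNC and 3 over the Dsh libraries, a depth-scaled ratio of 10.2 (exact 95% interval 3.15 to 52.4, counting error only). The ACHN shNC libraries differed among themselves (0.206, 0.955 and 0.319 CPM).

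The next comparison asked whether the effect of both knockdowns together equalled, in log2 units, what the single knockdowns add up to, tested as an interaction over the 12 libraries of a line. In ACHN cells the interaction was above 0 for 9 of 23 genes and below 0 for 6, beside 26.8% and 28.8% of all genes, with a median of 0.19 against 0.012. Leaving out 1 library gave 6 to 8 above 0 and 5 or 6 below. The 9 became 6 without shNC replicate 1 or 2, shKDM5C replicate 1 or Dsh replicate 2 or 3, and the calls of AMN, DAB2, SLC9A3, SLC13A3, MME and ALPL were each lost without 1 or more single libraries. Only SLC17A3, CUBN and SLC34A2 passed the fold limit (10.2% of all genes). For SLC17A3 the interaction was log2 value 5.30, with standard error 0.365, adjusted p = 4.81e-12. Its shYY1 effect was negative and its Dsh effect positive. The gene had only 19 counts over the shYY1 libraries, none at the CPM that the filter asked for against shNC. The size of its interaction is uncertain for that reason. For SLC34A2 the interaction was log2 value -1.69, with standard error 0.0661, adjusted p = 7.37e-17. The rise with shYY1 alone was nearly absent in Dsh cells. ASS1 rose with shYY1 alone and fell in Dsh cells (log2 value -1.37, with standard error 0.102, adjusted p = 2.27e-11), and for DPP4 the fall in Dsh cells exceeded the sum (log2 value -0.73, with standard error 0.0798, adjusted p = 1.95e-08). GATM fell with shYY1 and did not pass the test in Dsh cells (13.0 ± 0.0952 CPM in shNC, 6.88 ± 1.12 CPM in shYY1 and 13.2 ± 1.24 CPM in Dsh, interaction 1.10, adjusted p = 3.75e-06). GGT1 had an interaction of 0.067 (95% interval -0.061 to 0.20). The targets themselves departed from the sum in ACHN cells, with an interaction of 0.28 for YY1 (adjusted p = 0.00125) and -0.42 for KDM5C (adjusted p = 6.48e-06). YY1 fell by less in Dsh cells than with shYY1 (-0.51 against -0.88). The part of these unequal knockdowns in the interactions was not tested.

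In HK2 cells 3 of 22 genes had an interaction above 0 (PCK2, GATM and AGT) and 3 below it (SLC4A4, SLC34A2 and SLC17A3), beside 5.21% and 4.4% of all genes, and 2.1% of all genes passed the fold limit, as SLC34A2 and SLC17A3 did. SLC34A2 passed the filter only through shKDM5C (13, 636, 12 and 25 counts over the shNC, shKDM5C, shYY1 and Dsh libraries), so no value is given for it. For SLC17A3, which was highest in the shKDM5C libraries, the interaction was log2 value -1.72, with standard error 0.207, adjusted p = 3.37e-04. For PCK2 the interaction was log2 value 1.41, with standard error 0.206, adjusted p = 0.00126, and for AGT it was log2 value 1.33, with standard error 0.287, adjusted p = 0.0119. Without shKDM5C replicate 1, 6 genes of 23 were above 0 and 3 below, beside 15% and 13.7% of all genes, with values of -1.78 for SLC17A3, 1.27 for PCK2 and 1.09 for AGT. Without shYY1 replicate 1 or 3, 1 gene was below 0. The call of SLC4A4 was lost without any of the 9 shNC, shYY1 or Dsh libraries (adjusted p = 0.0828 to 0.105).

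**Figure D4:**
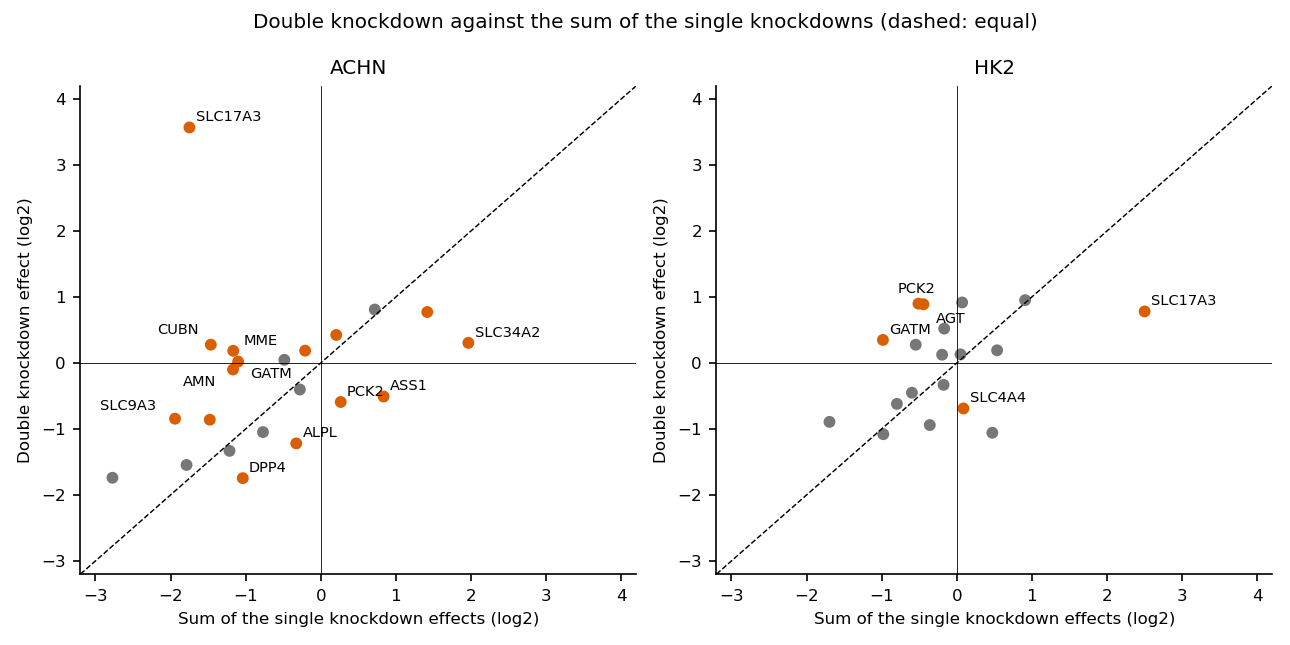
Double knockdown effect (vertical, log2) against the added single knockdown effects (horizontal, log2) for genes tested in all 3 comparisons of a line, with equality dashed. Orange points have an interaction at an adjusted p under 0.05, and SLC17A3 lies far above the line in ACHN and below it in HK2 cells.

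The lines were last compared in their response to the double knockdown. Of 25 genes tested, the Dsh effect was higher in ACHN than in HK2 cells for 5 and lower for 6, beside 23.3% and 22.7% of all genes. Of these genes, 5 also passed the fold limit (8.88% of all genes). AGT is among these 5, but it passed the filter on low counts only through HK2 cells. Its call is no support for the counts. The median difference was -0.34 against 0.013 over all genes. The knockdowns themselves were weaker in ACHN Dsh cells, with differences of 0.71 for KDM5C (adjusted p = 2.01e-09) and 0.99 for YY1 (adjusted p = 3.67e-12). The part of this in the differences below was not tested. DPP4 fell in ACHN and rose in HK2 cells, a difference of -2.68 (standard error 0.0812, adjusted p = 9.01e-21). PCK2 likewise fell in ACHN and rose in HK2 cells (difference -1.47, adjusted p = 4.57e-11). SLC17A3 rose in both, by more in ACHN (2.81, adjusted p = 4.65e-11), and so did GGT1 (0.70, adjusted p = 3.07e-09). The GGT1 call in HK2 Dsh cells was lost without shNC replicate 2 or 3 (adjusted p = 0.0546 to 0.116). It was also lost when scaled to total counts (adjusted p = 0.0865) and with all 4 HK2 groups in the fit (adjusted p = 0.694). For KHK, SLC4A4 and ASS1, which fell in both lines, the differences were -0.14 (95% interval -0.71 to 0.44), -0.15 (-0.30 to 0.0033) and -0.037 (-0.23 to 0.16), none past the test. Of the other genes called here, the calls of AMN, DAB2, MME and SLC9A3 were each lost when any of several single libraries was left out.

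**Figure D5:**
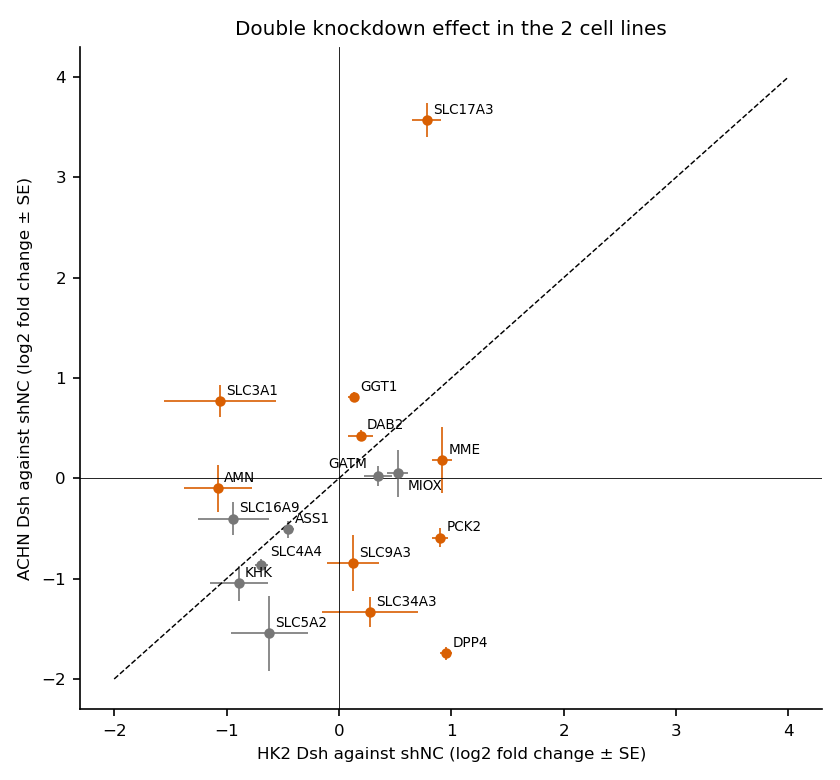
Dsh effect in ACHN (vertical) against HK2 (horizontal) as log2 fold change with its standard error for the 17 genes tested in both, equality dashed. Orange genes differed between lines at an adjusted p under 0.05, among them DPP4 (lower right, -1.75 in ACHN and 0.95 in HK2) and SLC17A3 (top).

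A second list of 92 other genes of proximal tubule transport, brush border and metabolism gave the wider picture. In ACHN Dsh cells 23 of 58 tested rose and 22 fell, beside 30.7% and 32.0% of all genes, and in HK2 Dsh cells 20 of 60 rose and 22 fell, beside 25.5% and 24.3%. The single knockdowns gave 15 higher and 17 lower of 56 (ACHN shKDM5C), 19 and 20 of 56 (ACHN shYY1), 4 and 0 of 59 (HK2 shKDM5C by edgeR, with 5 lower at an unadjusted p under 0.05 and 3 by DESeq2) and 6 and 19 of 61 (HK2 shYY1). The shares of all genes, higher and lower, were 28.9% and 27.7%, 24.2% and 24.5%, 0.668% and 0.656%, and 14.3% and 14.7%. Without replicate 1 of HK2 shKDM5C, 18 of 62 were higher and 11 lower, beside 11.5% and 10.9% of all genes. In ACHN Dsh cells the largest rises beside SLC17A1 were FXYD2, a modulator of the sodium pump (1.58, adjusted p = 7.46e-10), and PPARGC1A, a coactivator of mitochondrial genes (1.51, adjusted p = 5.60e-06). FXYD2 fell with each single knockdown (-1.69 and -3.30) and rose in Dsh cells, at 9.73 ± 0.761 CPM in shNC, 3.02 ± 0.205 CPM in shKDM5C, 1.00 ± 0.292 CPM in shYY1 and 29.1 ± 4.89 CPM in Dsh cells. The largest falls were SLC6A13, a carrier of GABA and taurine (-3.68, adjusted p = 1.19e-06), SLCO4C1, an organic anion carrier (-2.42, adjusted p = 6.37e-11), and HPD, an enzyme of tyrosine breakdown (-2.0, adjusted p = 3.65e-05). In HK2 Dsh cells CA12, a carbonic anhydrase (2.42, adjusted p = 2.99e-16), and ENPEP, the brush border peptidase that cuts angiotensin (2.11, adjusted p = 6.79e-09), rose. SLC7A8, an amino acid exchanger (-2.44, adjusted p = 1.35e-07), TREH, the trehalase (-1.80, adjusted p = 0.00163), and SLC6A13 (-1.76, adjusted p = 2.32e-09) fell.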

How the data were processed

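Total RNA of 24 ACHN and HK2 libraries (2 lines, 4 groups, 3 replicates) was sequenced. The authors aligned paired-end reads to GRCh38 with HISAT2 2.0.5 (submitters' notes) and deposited raw counts of read pairs per gene, without normalization, on Ensembl release 84. The headers name featureCounts 2.0.1 and the notes 1.5.0-p3. No strand or multi-mapping option was set, so genes on opposite strands and close paralogs cannot be separated.

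All 36 symbols, and the 92 genes of the second list and 44 cell type markers (renal epithelium, proximal tubule, loop of Henle, distal tubule, collecting duct, podocyte, endothelium, leukocyte, fibroblast, renal carcinoma), matched a gene. Members and lists were chosen with earlier results of these data known. Tests used edgeR 4.0.16 in R 4.3.3 (TMM, filterByExpr with its minimum count of 10, quasi-likelihood F test, Benjamini-Hochberg over all genes tested), with the 2 groups compared in each fit, 12 libraries for an interaction and for the difference between lines. A call was an adjusted p under 0.05, and the fold limit an absolute log2 fold change of 1.5. Standard errors came from the F statistic. The genes described in most detail were the 15 called with a log2 change of at least 1 at a mean of at least 1 CPM, plus the 5 highest by TPM in each line, 17 in all. Other measured genes were described after their values were seen. Alternatives were DESeq2 1.42.0, RLE or total-count scaling, no filter, 10 counts in every library, all 4 groups in a fit, the replicate number as a block, and each library left out. A fit of all 4 HK2 groups without shKDM5C replicate 1 was added after seeing the data. The steps were tested on simulated counts. Depth was 15926561 to 24272298 counts. Intervals of count ratios cover counting error only. Those of log2 values came from the standard errors by a normal approximation, and so include the spread between libraries.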

Additional observations from a re-analysis of the deposited data

Results flagged for a closer look

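What the double knockdown did differed between ACHN and HK2 cells by the test of the difference itself (edgeR, adjusted p under 0.05) for 11 of the 25 genes tested, with 5 effects higher and 6 lower in ACHN, beside 23.3% and 22.7% of all genes, so the count is close to the share over all genes. Of these, 5 genes also differed by at least 1.5 on the log2 scale. The difference, ACHN minus HK2, was 2.81 for SLC17A3, 1.85 for SLC3A1, -1.60 for SLC34A3, -2.68 for DPP4 and -4.07 for AGT. The AGT value rests on 3 counts in the ACHN Dsh libraries, where the gene was too low to test against shNC. AGT passed the filter on low counts only through HK2 cells, so its call is no support for the counts above. In SLC3A1, 29.4% of the exons overlap a gene on the opposite strand, and in HK2 Dsh cells its mean was 0.507 CPM.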

How the results depend on the processing

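Over all alternatives none of the single-gene values called in the main fits changed direction. Genes not called there, and repeats in which a gene was not tested, were left out of this tally. Of their repeats, 1858 kept their side of the threshold and 148 no longer passed it, and of the repeats of counts and summed levels 286 stayed within the limits and 24 moved. In HK2 shKDM5C cells, the 3 higher and 0 lower calls became 0 higher with the replicate block, 6 higher and 2 lower with all 4 groups in the fit, 7 higher and 2 lower in that fit without shKDM5C replicate 1, and 1 lower with DESeq2. Leaving out a library gave 0 to 7 higher and 0 to 3 lower. The 7 and 3 came without shKDM5C replicate 1, and 0 or 1 higher without a shNC library. With all 4 groups, HK2 shYY1 had 1 higher and 2 lower and HK2 Dsh 5 higher, against 3, 4 and 8 when shKDM5C replicate 1 was left out of that fit. Without the filter on low counts, 5 interactions in HK2 cells were above 0, and 3 Dsh effects were higher in ACHN than in HK2 cells. Leaving out a library gave 3 to 6 interactions above 0 (6 without shKDM5C replicate 1) and 1 to 3 below (1 without shYY1 replicate 1 or 3) in HK2 cells. For the difference between lines it gave 3 to 5 higher, the 3 coming without ACHN shNC replicate 1 or 2, ACHN Dsh replicate 3, HK2 shNC replicate 3 or HK2 Dsh replicate 2. The cause was not tested. Replicate numbers do not pair the samples: same-numbered libraries of different groups had deviations correlated between -0.089 and 0.042. With the replicate block the genes called in HK2 shKDM5C fell from 214 to 0 and those of the HK2 interaction from 1642 to 1214. Genes under about 1 CPM (CUBN, SLC34A1, HK2 SLC34A2, ACHN AGT) rest on few counts.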
